A study of Mus musculus with 12 samples.

Results

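Sham-operated hearts of mice on a high-fat diet were compared with sham-operated hearts of mice on a fat-free diet. The comparison used 5 of the 12 samples in the labels, of which 11 had values: fat-free sham replicates 1 to 3 and high-fat sham replicates 2 and 3, taken by their group labels. Replicate 1 of the high-fat sham group was not analysed here, so 3 libraries stood against 2. All mice were C57Bl/6J and 12 weeks old, and the labels name no transgene. The diets held 0 or 60 kcal% fat, began 4 days before surgery and went on for the 1 week between surgery and tissue collection. A sham operation leaves the aorta open, so neither group was under pressure load. The labels name the tissue only as heart, without a chamber, and do not say whether the libraries of a group are separate animals, so p-values measure the spread between these libraries, which may be technical. The values of each diet were deposited as a table of their own. Diet and table, with anything that differed in handling or sequencing between the tables, cannot be told apart in any difference given here.

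The adult heart takes most of its energy from long-chain fatty acids. They enter the muscle cell through transporters such as CD36, are bound by FABP3, cross the mitochondrial membranes as carnitine esters and are shortened by the beta-oxidation enzymes. The nuclear receptor PPAR alpha is activated by fatty acids and raises transcription of many of these genes in heart and liver. Synthesis of fatty acids runs the opposite way, through acetyl-CoA carboxylase (Acaca), fatty acid synthase (Fasn) and the desaturase Scd1, and is repressed by dietary polyunsaturated fat in liver.

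Levels below are normalized read counts per gene, rescaled so that the 5 libraries share one scale, and differences are log2 of high-fat over fat-free, ± SE where an error follows. A gene passed at a Benjamini-Hochberg adjusted p under 0.1 in limma, over the 14065 genes tested. The words higher, lower, rose and fell are used for genes that passed, unless values alone are given. Normalized counts of a sham library summed to between 31274316 and 39699027. The mitochondrial genome accounted for 26.23% to 28.43% of the counts in fat-free libraries and for 32.52% to 32.75% in high-fat libraries. The Y-linked gene Ddx3y was counted in all 5 libraries (2205, 2208 and 1952 in fat-free, 2346 and 2312 in high-fat libraries).

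The libraries of the fat-free group were not alike, and fat-free replicate 2 stood apart. Its log2 values correlated with those of high-fat replicates 2 and 3 at r = 0.9807 and 0.9822, and with those of its own group at 0.9759 and 0.975, whereas fat-free replicates 1 and 3 correlated at 0.987 and the high-fat pair at 0.9903 (across genes, which are not independent). Myl7, the atrial myosin light chain, counted 10304, 282 and 8759 in fat-free replicates 1 to 3 and 3.8 and 5.68 in high-fat replicates 2 and 3. The summed level of 12 atrial markers was 90988, 26429 and 68778 in the fat-free libraries against 16397 and 19136, and 10 of the 12 lay below every fat-free value, as did 18.1% of all genes. Summed white fat markers without Fabp4, which endothelium also expresses, came to 2049, 1329 and 1658 against 471 and 479.6, with Adipoq, Cfd, Cidec and Nnat at 0 in both high-fat libraries. Both sums were lower in each high-fat library than in any fat-free one. Fabp4 itself was not lower, and with it the white fat sum was 14146, 15634 and 19279 against 23819 and 21579. In such bulk tissue, fewer cells of a type and less RNA per cell cannot be told apart.

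By limma, 266 of the 14065 genes passed (1.89%), 148 higher (1.05%) and 118 lower (0.839%) on the high-fat diet. Of these 28 rose and 57 fell by at least 2-fold. Scaled by total counts 118 were higher and 884 lower, with a median over all genes of -0.16, and with the values as deposited 999 and 184, with a median of 0.13, so a difference of such size in a single gene rests on the scaling. At an unadjusted p under 0.05 there were 2295 genes (16.3%), and the median difference of all genes tested was -0.0024. The count depended on which libraries were in the fit: it was 60, 2356 and 31 without fat-free replicate 1, 2 or 3, and 7 and 17 without high-fat replicate 2 or 3. Past the test in all 5 of these fits were 7 genes, namely Malat1 and Scn4b, which rose, and the fat-cell genes Cfd, Adipoq, Car3, Cidec and Plin1, which fell. All 266 genes had the same sign without fat-free replicate 2, and in the other 4 fits the 262 to 265 of them that were tested did. These genes were chosen for their difference in libraries that such fits reuse. Counts of kept signs in them, here and below, therefore do not measure how steady the signs are. When all 11 libraries shared one fit, the hearts after transverse aortic constriction (TAC, a surgical pressure load) included, 1 gene passed.

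**Figure D1:**
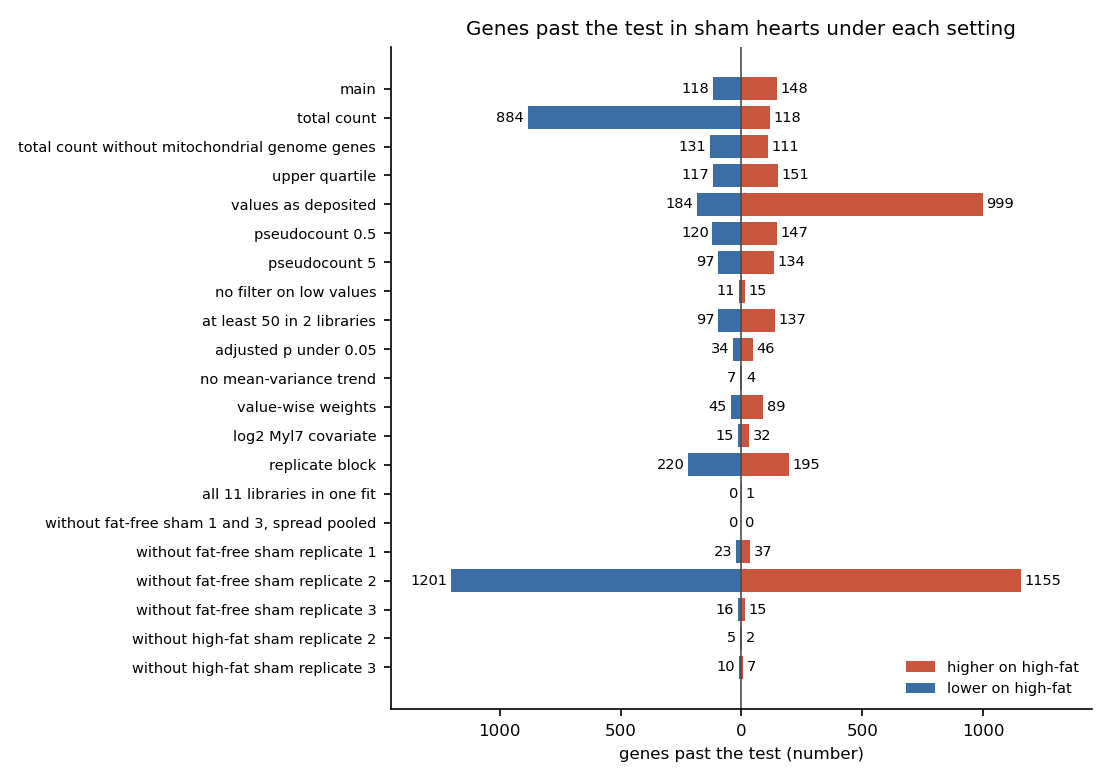
Number of genes past the test in sham hearts (x axis) under each setting (rows), to the right those higher and to the left those lower on the high-fat diet. The main setting gave 148 and 118; leaving out fat-free replicate 2 gave 1155 and 1201, and leaving out high-fat replicate 2 gave 2 and 5.

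Of 24 mitochondrial beta-oxidation genes tested, 13 rose on the high-fat diet, none fell and 11 did not pass, against 1.05% higher among all genes tested. In 20 of the 24 both high-fat libraries lay above all 3 fat-free ones, against 18.2% of all genes, and the median of the list was 0.40. Decr1 (chr4:15917240-15945507, mm10), the mitochondrial dienoyl-CoA reductase that prepares polyunsaturated chains for oxidation, counted 15484, 15312 and 15471 in the fat-free libraries and 31889.7 and 28152 in the high-fat ones. The fat-free values of Decr1 were nearly equal and every high-fat value was far above them (0.96 ± 0.081, adjusted p = 0.00785 by limma). Ech1, an isomerase acting on other unsaturated chains, counted 45833, 46234 and 50067 against 87917 and 77705, again without overlap (0.80 ± 0.095, adjusted p = 0.0298 by limma).

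Within the carnitine shuttle 2 genes passed. Cpt2, which turns acyl-carnitine back into acyl-CoA on the matrix side, rose by 0.69 ± 0.085, and the carnitine carrier Slc25a20 by 0.65 ± 0.078. The outer-membrane enzymes that load carnitine did not pass: Cpt1b, the muscle form, counted 807, 751 and 791 against 835 and 864, with an interval of -0.089 to 0.32 for its log2 difference. Cpt1a, the form that liver also uses, counted 2077, 1129 and 1450.2 against 1432 and 1502, and the high-fat values lay inside the fat-free range. Its interval was -0.56 to 0.49.

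In the oxidation spiral itself, the long-chain dehydrogenases Acadl and Acadvl rose by 0.53 and 0.45. Both subunits of the trifunctional protein rose, Hadha by 0.60 ± 0.099 and Hadhb by 0.65 ± 0.076. The thiolase Acaa2 (0.59), the isomerase Eci1 (0.50), the shorter-chain dehydrogenase Hadh (0.39) and the electron carriers Etfdh (0.51) and Etfa (0.39) rose as well. The medium- and short-chain dehydrogenases Acadm and Acads had differences of 0.35 and 0.41 without overlap, but did not pass (adjusted p = 0.134 and 0.106 by limma). Acad9, Acacb, Etfb and Cpt1a were the 4 genes whose libraries overlapped between the diets. Without fat-free replicate 1, 2 or 3 the list had 5, 17 and 1 members higher, without high-fat replicate 2 or 3 it had 0 and 1, and with all 11 libraries in one fit 0. With log2 Myl7 as a covariate none passed and the median was 0.40, and without fat-free replicates 1 and 3, in a fit that also pooled the spread over all 11 libraries' groups, none passed and it was also 0.40. Scaled by total counts, 12 were higher with a median of 0.24. Myl7 itself fell on the high-fat diet (-9.02). Here and below, a fit with it as a covariate therefore cannot separate diet from atrial content.

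**Figure D2:**
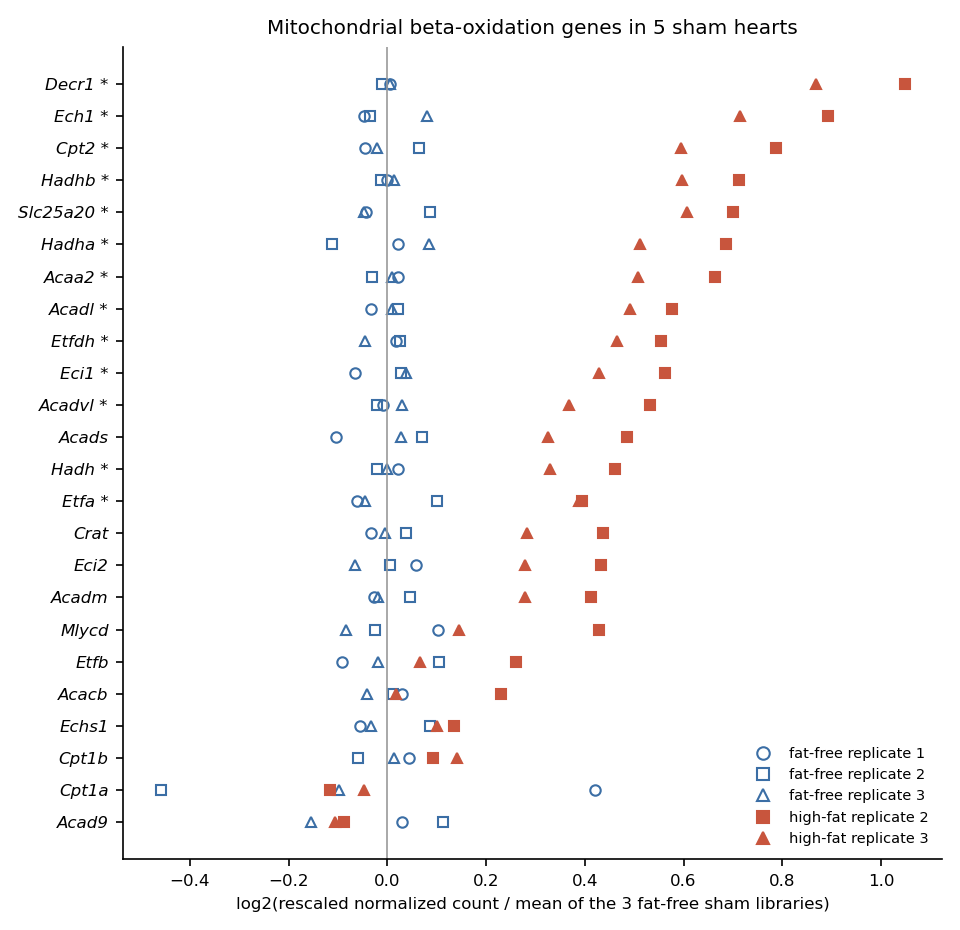
Each of the 24 beta-oxidation genes (rows) in each of the 5 sham libraries, as log2 of its rescaled normalized count over the mean of the 3 fat-free libraries; open symbols are fat-free, filled symbols high-fat, and an asterisk marks genes that passed. High-fat replicates 2 and 3 lie to the right of all fat-free libraries for 20 genes, from Cpt1b at 0.12 to Decr1 at 0.96.

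Hadha and Hadhb lie head to head on chromosome 5, with 272 bases between their RefSeq starts. They share one promoter region, which is shown because both genes moved by a like amount. The window runs from 250 bases before the Hadhb start to the first 50 bases of the gene (chr5:30155003-30155302, plus strand, GRCm38.p6, RefSeq). Capitals mark the 228 bases that also fall in the corresponding Hadha window.
Hadhb: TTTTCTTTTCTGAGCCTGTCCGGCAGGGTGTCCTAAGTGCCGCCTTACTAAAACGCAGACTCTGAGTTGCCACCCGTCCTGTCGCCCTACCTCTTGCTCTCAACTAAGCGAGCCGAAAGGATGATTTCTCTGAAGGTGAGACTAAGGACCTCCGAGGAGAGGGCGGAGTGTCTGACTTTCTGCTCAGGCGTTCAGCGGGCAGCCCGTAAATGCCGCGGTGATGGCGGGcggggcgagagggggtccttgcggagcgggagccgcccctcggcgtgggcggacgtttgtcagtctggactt
The direct repeat bound by PPAR alpha and its partner RXR was searched on both strands as 2 copies of AGGNCA in a row with any 1 base between them. It was in 0 of the 11 windows found for the 13 beta-oxidation genes that rose, and in 125 of all 32851 windows (0.3805%), which says only that these letters are absent from these windows of 300 bases.

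Fatty acid uptake genes rose in part. Of 17 genes of uptake and lipoprotein lipase 3 rose, none fell and 14 did not pass, against 1.05% higher among all genes. Cd36, the membrane transporter, counted 56082, 58460.4 and 55439 against 95589 and 88971 and was higher in both high-fat libraries (0.70 ± 0.085, adjusted p = 0.0306 by limma). Fabp3, the cytosolic carrier of heart muscle, counted 62959, 68380.2 and 66188 against 101769 and 95508 (0.58 ± 0.089), and the lipoprotein receptor Vldlr rose by 0.40. Lpl, the lipase that frees fatty acids from circulating lipoproteins, counted 177485, 226011 and 200914 against 238506 and 244896 and did not pass (adjusted p = 0.361 by limma). The list had 1, 6, 0, 0 and 0 members higher without fat-free replicates 1 to 3 and high-fat replicates 2 and 3 in turn.

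PPAR alpha targets overlapped with both lists. Of 30 on the list 27 were tested, 13 rose, none fell and 14 did not pass, with a median of 0.53, against 1.05% higher among all genes. The list had 7, 17, 1, 0 and 1 members higher without fat-free replicates 1 to 3 and high-fat replicates 2 and 3 in turn (2 lower without fat-free replicate 2), 3 with log2 Myl7 as a covariate and 0 with all 11 libraries in one fit. This list shares 8 of its 13 risers with the beta-oxidation and 2 with the uptake list, so it is not a separate result for those. The other members that rose were Acot1, Acot2 and Cidea. Acot1, a cytosolic thioesterase that releases fatty acids from CoA, counted 687, 381 and 509 against 1657 and 1100.1 (1.40 ± 0.26, adjusted p = 0.0836 by limma). Acot2, its mitochondrial neighbour on chromosome 12, counted 2295, 1699.9 and 2068 against 4803 and 3875 (1.10 ± 0.15). For both genes the lowest high-fat value was above the highest fat-free value. Acot1 and Acot2 are near-identical copies, and how the counting shared reads between them is not known, so their separate values are uncertain.

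Other targets separated fat-free replicate 2 from all other libraries instead of the diets. Pdk4, the kinase that shuts off pyruvate dehydrogenase when fat is burned, counted 34599, 4956 and 37288 against 40895 and 29920.3. Angptl4, a secreted inhibitor of lipoprotein lipase, counted 582, 49.5 and 557 against 516 and 400.1. Ucp3, a mitochondrial carrier of muscle, counted 3350.5, 786 and 2137 against 2523 and 1667. In all 3 genes fat-free replicate 2 was the lowest library, and fat-free replicates 1 and 3 lay above the lower high-fat value. Their differences were 0.91 ± 0.80, 0.84 ± 0.98 and 0.21 ± 0.54 (adjusted p = 0.604, 0.702 and 0.877 by limma). The receptor gene Ppara itself counted 2089, 2646 and 1747 against 2159 and 2478 and overlapped.

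**Figure D3:**
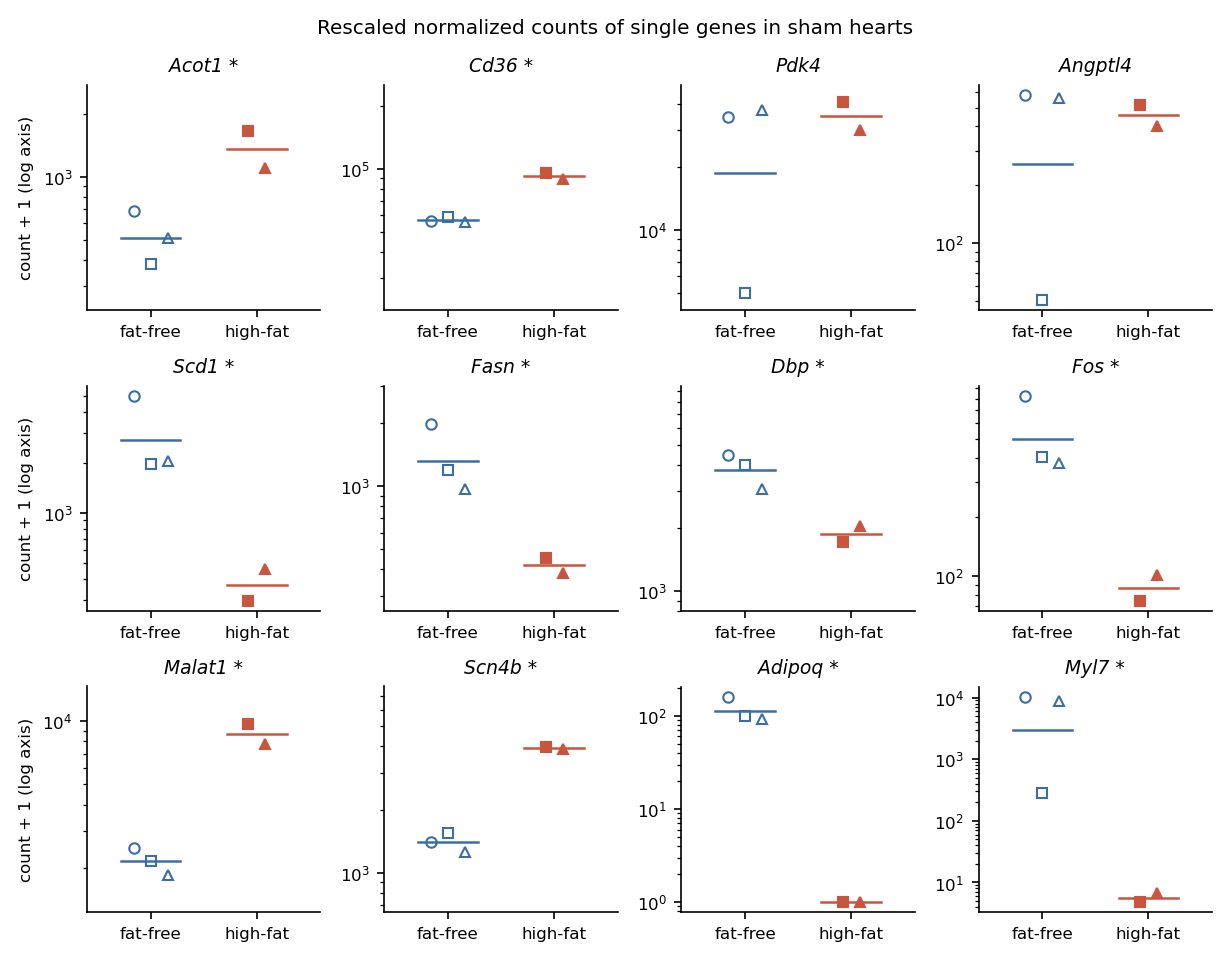
Rescaled normalized counts plus 1 of 12 genes (log axes) in the fat-free (open) and high-fat (filled) sham libraries; circles, squares and triangles are replicates 1, 2 and 3, lines are means on the log scale, and an asterisk marks genes that passed. Acot1, Cd36, Malat1 and Scn4b are higher in both high-fat libraries, Scd1, Fasn, Dbp, Fos, Adipoq and Myl7 lower, and in Pdk4 and Angptl4 the low point is fat-free replicate 2 at 4956 and 49.5.

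Some genes of fatty acid synthesis fell. Of 22 tested, 5 fell, 1 rose and 16 did not pass, against 0.839% lower among all genes, and the median was -0.17. Scd1 (chr19:44394450-44407709, mm10), the desaturase that makes oleate, counted 5031, 1961 and 2048 against 294 and 461. Both high-fat values were far below the lowest fat-free one (-2.88 ± 0.41, adjusted p = 0.0407 by limma). Fasn counted 1986, 1197 and 969.9 against 455 and 382 (-1.66 ± 0.27, adjusted p = 0.0619 by limma). Acaca, whose enzyme makes the malonyl-CoA that Fasn uses, fell (-0.74 ± 0.15). The citrate carrier Slc25a1, which exports carbon for synthesis, fell too (-0.97 ± 0.19), as did Srebf1, a transcription factor for these enzymes (-0.62 ± 0.11). Me1, the cytosolic malic enzyme that supplies NADPH and is also a PPAR alpha target in liver, moved the other way, from 3594, 3437 and 3407 to 5442 and 5447 (0.65 ± 0.069).

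Other synthesis genes pointed down without passing. Scd2 counted 801, 905 and 793 against 432 and 627 (-0.68, adjusted p = 0.133 by limma), Elovl6, which lengthens palmitate, 89.4, 33 and 48.9 against 20.9 and 29.3, and Fads2, a desaturase of polyunsaturated chains, 117, 81.4 and 232 against 57 and 56.8. Their libraries did not overlap, but 18.1% of all genes also lay below every fat-free value. Scd4, a heart isoform of the desaturase, counted 452, 263 and 344 against 515 and 411 and overlapped. Fat cells also express Scd1, Fasn, Acaca and Slc25a1, and the fat-cell hormone Adipoq counted 159, 97.9 and 91.5 against 0 and 0, so that fat-free replicate 1 was highest in Adipoq, Scd1 and Fasn alike. The part of fat-cell RNA in the fall was not tested. With log2 Myl7 as a covariate none passed, with a median of -0.12. The list had 2, 9, 0, 0 and 0 members lower without fat-free replicates 1 to 3 and high-fat replicates 2 and 3 in turn.

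Most white fat markers fell, against 0.839% lower among all genes. Of 11 white fat markers tested 8 fell, none rose and 3 did not pass, with a median of -5.18, or -5.0 with the genes at 0 set to their bound. Cfd, the adipocyte protease adipsin, counted 341, 269 and 234 in the fat-free libraries and 0 in both high-fat ones, at least 93.8-fold lower against a floor of 3 counts per library (adjusted p = 0.000277 by limma). Adipoq was at least 38.7-fold lower by the same floor. Car3, a carbonic anhydrase abundant in fat, counted 700.4, 321 and 430.4 against 0 and 1.89. The droplet protein genes Plin1 and Cidec, the hormone gene Retn and the glyceroneogenic Pck1 fell too. Fabp4 (12097, 14305 and 17621 against 23348 and 21099) and Pparg (284, 345 and 458 against 385 and 366) did not pass. Without each library in turn the list had 5 to 8 members lower, with log2 Myl7 as a covariate 1, and with all 11 libraries in one fit 0.

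Lipid droplet genes gave few calls, where 1.05% of all genes were higher and 0.839% lower. Of 27 genes of droplets and lipolysis 2 rose, 1 fell and 24 did not pass. Mgll, the monoglyceride lipase, rose by 0.59 ± 0.11 and Cidea, a droplet fusion protein, by 0.62 ± 0.093, while the gene that fell was the fat-cell gene Cidec. Plin5, which ties droplets to mitochondria in oxidative muscle, counted 5964, 5494 and 5027 against 7418 and 6737 without overlap and without passing (0.37, adjusted p = 0.149 by limma). Of all genes 18.2% lay above every fat-free value. Plin2, a general droplet coat protein, had a difference of 0.18. Of 8 ketone body genes 1 rose, the thiolase Acat1 (0.38 ± 0.080). Of 16 genes of peroxisomal beta-oxidation and of 23 of cholesterol synthesis and uptake none passed in either direction (5 and 0 higher and 0 and 4 lower at an unadjusted p under 0.05). At such a p, 1143 of all 14065 genes tested were higher and 1152 lower. Of 13 thioesterases and uncoupling proteins 2 rose, Acot1 and Acot2.

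Glucose genes changed at single steps, where 1.05% of all genes were higher and 0.839% lower. Among 23 genes for glucose uptake and glycolysis there was 1 rise and 1 fall. Hk1, a hexokinase bound to mitochondria, counted 4981, 5788 and 5417 against 3667 and 3634 (-0.56 ± 0.084, adjusted p = 0.0443 by limma), below the fat-free values in both libraries. Pfkfb2, the heart enzyme that makes the phosphofructokinase activator, rose by 0.53 ± 0.11. The insulin-regulated transporter Slc2a4 counted 15163, 16367 and 14492 against 12481 and 12779 and did not pass (-0.28, adjusted p = 0.174 by limma), nor did Slc2a1 (-0.36) or Hk2 (0.068). Of 14 genes of pyruvate dehydrogenase and its kinases Pdk1 rose (0.37 ± 0.073). Of 22 insulin signaling genes Foxo3 (-0.89) and Socs3 (-1.11) fell. With log2 Myl7 as a covariate the value of Foxo3 was 0.064.

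Other mitochondrial lists gave single calls or none, where 1.05% of all genes were higher and 0.839% lower. None of 74 nuclear respiratory chain subunits, 12 genes of the mitochondrial genome and 21 genes of branched-chain amino acid breakdown passed (13, 4 and 2 higher and 1, 0 and 0 lower at an unadjusted p under 0.05). Of all 14065 genes tested, 1143 were higher and 1152 lower at such a p. In 62 of the 74 respiratory chain subunits the difference was above 0, as in 6966 of all genes. Both high-fat libraries lay above all fat-free ones in 21 and below them in 2 (18.2% and 18.1% of all genes). The median of these subunits, 0.16, turned sign under another scaling. Of 21 genes of the tricarboxylic acid cycle and its refilling, 1 fell, the pyruvate carboxylase Pcx, from 1435, 1441 and 1373 to 991 and 954 (-0.54 ± 0.080). Of 21 genes of mitochondrial biogenesis and nuclear receptors 1 rose. It was Ppargc1a, a coactivator of PPAR alpha, which counted 2624, 2621 and 2732 against 3419 and 3445 (0.37 ± 0.070, adjusted p = 0.0845 by limma). Whether these lists differ from the beta-oxidation list was not tested. Of 24 antioxidant genes the peroxisomal catalase Cat rose (0.46) and the glutathione peroxidase Gpx1 fell (-0.57).

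Clock output genes gave 2 calls, both lower on the high-fat diet, against 0.839% lower among all genes. Dbp (chr7:45705247-45710203, mm10), a transcription factor driven directly by the clock, counted 4456, 3982 and 3084 against 1719 and 2044 (-1.02 ± 0.16, adjusted p = 0.0505 by limma). Ciart, a repressor within the clock loop, counted 276, 244 and 370.1 against 102 and 147 (-1.25 ± 0.23, adjusted p = 0.0813 by limma). For neither gene did the groups overlap. The other 10 of 12 clock output genes did not pass. Of 14 core clock genes 1 passed, Nr1d1, which encodes the receptor REV-ERB alpha and fell (-0.48 ± 0.074). Arntl, the activator that Nr1d1 represses, counted 131, 174 and 296 against 286 and 282 and overlapped, and Npas2, a partner of Arntl, counted 48.8, 46.4 and 79 against 86.4 and 96.5. Hlf, a relative of Dbp, counted 1557, 1051 and 1007 against 756 and 848 and did not pass (adjusted p = 0.223 by limma).

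In the TAC hearts, which share no library with the sham hearts but come from the same 2 tables, the diet difference was -1.99 ± 0.30 for Dbp, -2.80 ± 0.45 for Ciart, -0.40 ± 0.16 for Nr1d1 and 1.57 ± 0.41 for Arntl. None of them passed there. Time of day at tissue collection is not given in the sources used here. The promoter of Ciart is shown because it carries the E-box, the clock activators' binding motif, searched as CACGTG, 3 times (capitals; the motif reads the same on both strands). The window is chr3:95882179-95882478 on the minus strand (GRCm38.p6, RefSeq), with the start of the gene after base 250.
Ciart: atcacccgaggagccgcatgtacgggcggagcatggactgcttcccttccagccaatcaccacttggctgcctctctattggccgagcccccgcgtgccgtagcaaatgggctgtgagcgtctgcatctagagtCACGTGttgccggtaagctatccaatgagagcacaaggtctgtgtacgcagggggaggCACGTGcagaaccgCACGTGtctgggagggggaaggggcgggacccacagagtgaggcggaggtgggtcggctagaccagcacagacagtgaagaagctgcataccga
At least 1 such motif was in 2349 of the 32851 promoter windows (7.15%), 3 or more in 29 (0.0883%). Those of Dbp and Nr1d1 held none.

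Immediate early genes, which stimuli switch on within minutes, fell in part. Of 22 tested, 8 fell, none rose and 14 did not pass, against 0.839% lower among all genes. The difference was below 0 for all 22 (median -0.84), where 6966 of the 14065 genes tested were above 0. Fos, the activity-induced subunit of the transcription factor AP-1, counted 825, 401 and 374 against 73.1 and 100.3 (-2.53 ± 0.34, adjusted p = 0.0384 by limma). Jund, a subunit present at rest, counted 4005, 3383 and 3802 against 2226 and 2158 (-0.76 ± 0.091, adjusted p = 0.0301 by limma). Egr1, another rapidly induced transcription factor, counted 1366, 1226 and 884 against 451 and 447 (-1.34 ± 0.18). In each of the 3 genes the groups were apart. Junb (-1.71), Klf2 (-0.88), Ier2 (-0.74), Jun (-0.53) and the phosphatase gene Dusp1 (-1.04) fell too. Fat-free replicate 2, low in atrial transcripts, was the lowest fat-free library for Jund and Dusp1 (2606 against 3912 and 4622 for Dusp1), but not for Fos or Egr1. The part of atrial content in the fall was not tested. With log2 Myl7 as a covariate none of the 22 passed, the median turned to 0.27 and Dusp1 stood at 0.21. Myl7 differed between the diets, so these values are no adjustment for atrial content alone. With all 11 libraries in one fit none passed either, with a median of -0.82, and when that pooled spread was used without fat-free replicates 1 and 3 none passed and the median was -0.42. The list had 3, 17, 2, 0 and 0 members lower without fat-free replicates 1 to 3 and high-fat replicates 2 and 3 in turn. In TAC hearts its median was -0.57.

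Of 17 glucocorticoid-responsive genes 1 fell, against 0.839% lower among all genes. It was Dusp1, which the list shares with the immediate early genes. Fkbp5, a chaperone gene that glucocorticoids induce, counted 753, 643 and 561 against 462 and 583 and overlapped. The metallothionein gene Mt2 counted 973, 397 and 1127 against 189.9 and 317 without overlap and without passing (adjusted p = 0.161 by limma). Of all genes 18.1% lay below every fat-free value.

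Malat1 and Scn4b were the rises that passed with any single library left out. Malat1 (chr19:5795690-5802671, mm10), a long RNA that stays in the nucleus, counted 2489, 2147 and 1846 against 9678 and 7760.1 (2.01 ± 0.14, adjusted p = 0.00402 by limma), and ran from 1.86 to 2.18 when a library was left out. Scn4b (chr9:45139042-45154061, mm10), the beta-4 subunit of cardiac sodium channels, counted 1393, 1542 and 1256 against 3970.1 and 3899.9 (1.5 ± 0.10, adjusted p = 0.00288 by limma), and ran from 1.43 to 1.57. Both genes were tight within each diet and far apart between them. Neither passed with log2 Myl7 as a covariate or with all 11 libraries in one fit, and Malat1 did not without a mean-variance trend. Over the settings other than a single library left out, Malat1 ran from 1.86 to 2.14 and Scn4b from 1.11 to 1.63. Ttn, the giant spring protein of the sarcomere, counted 39733, 47275 and 44418 against 104899 and 96874 (1.21 ± 0.10), and did not pass without high-fat replicate 2 (1.15, adjusted p = 0.241 by limma). Neat1, another nuclear long RNA, rose by 1.01 ± 0.15.

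Among genes with a mean of at least 5 per 1000000 counts, the 10 largest rises also held Lgals4, a galectin gene (1.23), Vwa3a (1.38), the glycerol channel gene Aqp7 (1.05) and Fbp2, the muscle fructose bisphosphatase (0.99). Lgals4 counted 777, 515 and 664 against 1562 and 1466 and Aqp7 453, 559.8 and 543 against 1158 and 992, in both cases without overlap. All 4 failed to pass without fat-free replicate 3, high-fat replicate 2 or high-fat replicate 3. Lgals4 stood at 1.26, 1.19 and 1.28 there, and Aqp7 at 1.09, 0.95 and 1.17.

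Ion channel genes went both ways. Among 23 genes for potassium and sodium channels, 2 were higher, 2 lower and 19 not past the test. Among all genes tested 1.05% were higher and 0.839% lower. Besides Scn4b, Kcnj2, which carries the resting inward rectifier current, rose from 1070.4, 1112 and 1019 to 1523 and 1474 (0.49 ± 0.083). Kcnh2, the channel of the rapid delayed rectifier, counted 3545, 2951 and 2975 against 1979 and 1832 and fell (-0.72 ± 0.10, adjusted p = 0.0411 by limma), as did the inward rectifier Kcnj12 (-0.61 ± 0.13).

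Lists of contractile and fetal genes gave single calls each way, where 1.05% of all genes were higher and 0.839% lower. Of 25 contractile and calcium handling genes Ttn rose and Sln, the sarcolipin gene of the atria, fell. The calcium pump gene Atp2a2 counted 427178, 429253 and 424640.3 against 439359 and 442777, with an interval of -0.23 to 0.32, and Myh6, the adult myosin heavy chain, 558265, 507988 and 618931 against 642344 and 580588, with an interval of -0.22 to 0.47. Of 17 fetal and hypertrophy genes Xirp2, an actin-binding protein gene of the intercalated disc, rose (0.45 ± 0.078) and Nppa fell. Nppa, the natriuretic peptide gene that atrial muscle expresses most, counted 19711, 5135 and 11749 against 479 and 1154 (-3.83 ± 0.56, adjusted p = 0.0440 by limma). It was lower in both high-fat libraries, and its order within the fat-free group was that of Myl7. Nppb, the peptide gene more used by ventricle under load, counted 2516, 8503 and 3984 against 4341 and 4711, Myh7 6356, 1156 and 4329 against 1299 and 1381 and Acta1 5949.6, 4659 and 8326 against 6582 and 5969.5, all with overlap.

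Of 11 atrial markers tested 4 fell, none rose and 7 did not pass, and all 11 had differences below 0 (median -5.05), against 0.839% lower among all genes. Without fat-free replicate 2 all 11 passed, and without any other single library, or with all 11 libraries in one fit, none did. Besides Myl7 and Nppa they were Sln (3682, 97.9 and 2491 against 0 and 9.46) and the kinase gene Sbk3 (1553, 114 and 1080.1 against 15.2 and 14.2). Mybphl and Cntn2, also among the largest falls, counted 1789, 50.5 and 1208 against 0 and 6.62 and 899, 61.9 and 349 against 4.75 and 8.51. In all 6 genes fat-free replicates 1 and 3 were above replicate 2, which was still above both high-fat libraries. With log2 Myl7 as a covariate 47 genes passed, of which 3 were among the 266. Without fat-free replicates 1 and 3, with the spread pooled over all groups, none passed (871 at an unadjusted p under 0.05), where pooling alone left 1 gene past the test, and 261 of the 266 genes had the same sign.

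Markers of other cell types mostly did not pass, where 1.05% of all genes were higher and 0.839% lower. None passed among 18 endothelial, 9 endocardial and lymphatic, 7 ventricular muscle, 8 lymphocyte, 6 red blood cell, 8 skeletal muscle, 10 Schwann cell, 3 lung and thymus, 4 sex-linked and 7 histone genes. At an unadjusted p under 0.05 these lists had 5, 3, 0, 0, 0, 1, 0, 0, 1 and 0 genes higher and 0, 2, 1, 1, 2, 2, 1, 1, 0 and 1 lower. Among all 14065 genes tested 1143 were higher and 1152 lower at such a p. Of 10 mesothelial markers, genes of the heart's surface layer, 1 fell, Upk3b (202, 132 and 284 against 8.54 and 35, -3.41 ± 0.56), and 8 lay below every fat-free value (18.1% of all genes did). Of 15 fibroblast markers Pi16 (-0.69) and Clec3b (-0.53) fell, and of 13 smooth muscle and pericyte markers Acta2 did, from 3800.4, 3295 and 4145 to 1915 and 2218 (-0.86 ± 0.12). Of 7 brown fat markers Cidea and Ppargc1a rose, both of which heart muscle also expresses, while Ucp1, which defines brown fat, was at 0 in both high-fat libraries.

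Immune and matrix genes showed single calls, where 1.05% of all genes were higher and 0.839% lower. Of 15 macrophage markers Timd4, a receptor of resident macrophages, fell from 101, 72.2 and 64.5 to 27.5 and 29.3 (-1.42 ± 0.27), and 7 lay below every fat-free value, as did 18.1% of all genes, among them the complement genes C1qa, C1qb and C1qc (-0.51, -0.41 and -0.54, not past the test). Of 4 neutrophil markers S100a8 rose at low counts, 4.16, 7.22 and 8.32 against 49.4 and 66.2 (2.99 ± 0.44, adjusted p = 0.0440 by limma). Of 22 MHC genes H2-Aa rose (0.60), of 32 interferon-stimulated genes Ifi27l2a fell (-1.06), and of 41 matrix genes Sparc, a collagen-binding protein gene, rose (0.50). Of 35 genes of mitosis and DNA replication Mki67 rose, from 52, 49.5 and 66.5 to 123 and 236 (1.6 ± 0.30), and Cenpf, a centromere protein gene, fell, from 789.8, 672 and 718 to 262 and 331 (-1.30 ± 0.14, adjusted p = 0.0218 by limma). None of 63 ribosomal protein, 21 integrated stress response, 18 chaperone, 18 heat shock and 17 cytokine genes passed (0, 1, 0, 3 and 0 higher and 4, 2, 2, 0 and 3 lower at an unadjusted p under 0.05). Such a p was reached by 1143 genes higher and 1152 lower among all 14065 tested.

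**Figure D4:**
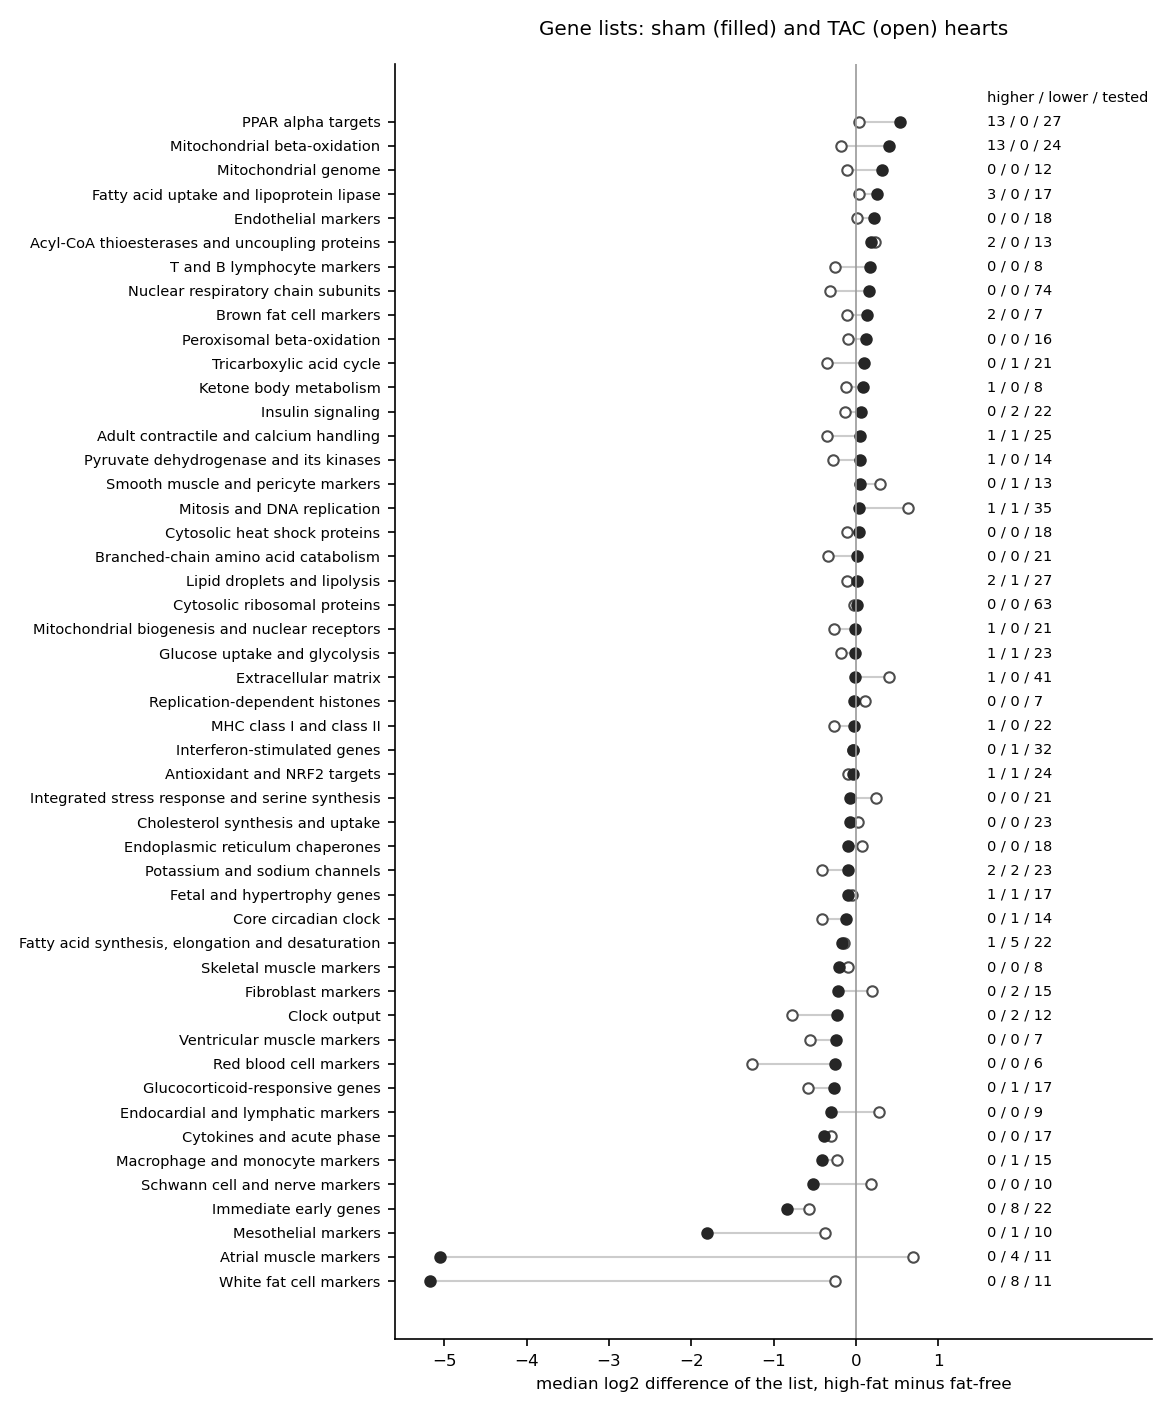
Median log2 difference, high-fat minus fat-free, of each gene list with at least 5 genes tested, in sham (filled) and TAC (open) hearts; numbers at the right give genes higher, lower and tested in sham hearts, and the vertical line marks 0. Medians between -0.12 and 0.16 in sham hearts may turn sign with another scaling. PPAR alpha targets and beta-oxidation are highest in sham hearts at 0.53 and 0.40, white fat and atrial markers lowest at -5.18 and -5.05.

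The same diet contrast in TAC hearts (n = 3 and 3), which uses other libraries of the same tables, passed for 0 of 14342 genes by limma, with 1752 at an unadjusted p under 0.05 (12.2%) and 57 past the test when all 11 libraries shared one fit. Of the 148 genes higher in sham hearts 117 (79.05%) were also above 0 in TAC hearts, and of the 112 tested among those lower 87 (77.68%) were below 0, where 61.59% of all genes had the same sign in both. Of the 148 and 112 genes, 44 and 32 had the same sign and an unadjusted p under 0.05 in TAC hearts, where 6.11% of all genes had such a p in each direction. Among all 8514 genes with the same sign in both, 1483 had it. Their medians were 0.62 and -0.90 in sham and 0.27 and -0.35 in TAC hearts. Beta-oxidation was among the lists that differed in sign, with a median of 0.40 in sham and -0.18 in TAC hearts. Decr1 stood at 0.96 ± 0.081 and 0.20 ± 0.31, Hadhb at 0.65 ± 0.076 and 0.036 ± 0.36 and Scn4b at 1.5 ± 0.10 and 0.018 ± 0.46. Acot1 (1.40 and 1.25) and Dbp (-1.02 and -1.99) had differences of one sign in both.

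In a single fit of all 11 libraries, the diet difference in sham minus that in TAC hearts passed for 0 of 14678 genes (smallest adjusted p = 0.809 by limma, 659 at an unadjusted p under 0.05, or 4.49%). No gene, those of beta-oxidation included, was therefore shown to respond otherwise to diet in sham than in TAC hearts. The unadjusted p of this difference was 0.000355 for Cenpf, 0.00167 for Nppa, 0.0178 for Fasn, 0.0253 for Scn4b and 0.0740 for Decr1 in limma, all with an adjusted p of 0.809.

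**Figure D5:**
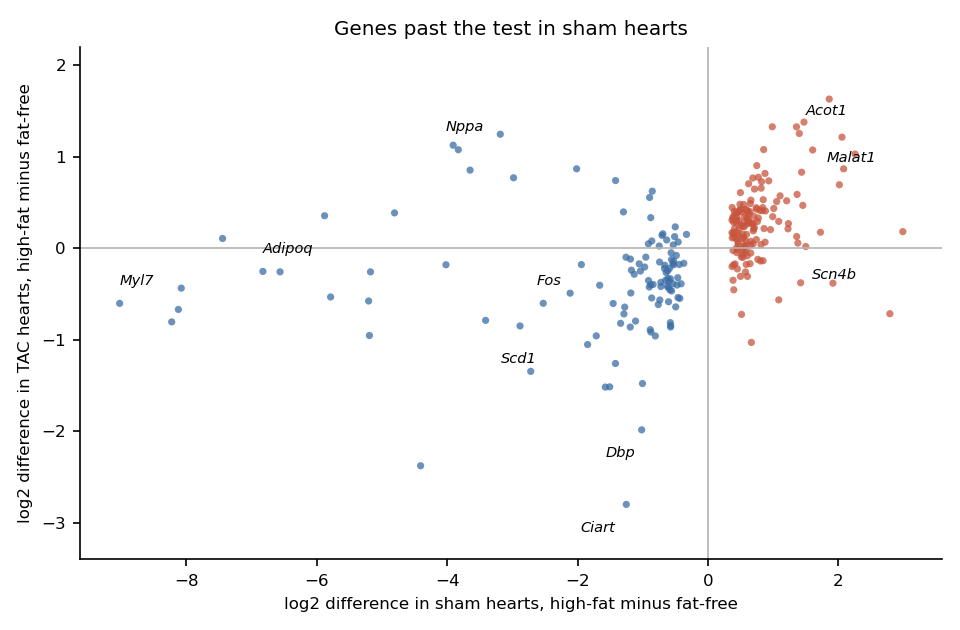
Log2 difference, high-fat minus fat-free, in sham hearts (x axis) and TAC hearts (y axis) for the genes past the test in sham hearts that were tested in both; red points rose and blue points fell in sham hearts. Dbp and Ciart lay at -1.99 and -2.80 in TAC hearts, where neither passed. Myl7, Adipoq and Cfd, below -6 in sham hearts, lay at -0.60 ± 3.06, -0.25 ± 2.18 and -0.67 ± 2.53 in TAC hearts. These errors are too wide to tell a fall there from no difference.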

How the data were processed

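For each diet the authors deposited normalized read counts of 27179 genes, a score made by scaling counts within each diet's file and rounding to whole numbers, as read from the values. Per the submitters' processing notes, STAR, Subread, featureCounts and DESeq2 were used with build mm10. Versions and settings are not given in the sources used here. Per the labels, libraries came from a stranded mRNA kit. Of the genes, 847 had no symbol, and 27 symbols stored as dates were restored by gene ID. Columns were matched to samples by group and replicate in their headers, with 0 left over.

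Both tables were joined on gene ID, and the libraries of each fit were rescaled together by median-of-ratios factors (0.962 to 1.06 in sham hearts). Genes with at least 10 in 2 libraries were tested with limma 3.58.1 (R 4.3.3, read with the data.table package, version 1.17.8) after adding a pseudocount of 1 and taking log2, two-sided and with a mean-variance trend, at an adjusted p under 0.1 (the false discovery rate in the series' design text). Fold changes are therefore on that scale, which understates those of low genes. Read depth before scaling is not known, and a pseudocount of 0.5 or 5, other scalings, filters and variance models and each library left out in turn were tried.

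The members, the 52 gene lists (34 of functions, 18 of cell type markers) and the tests were chosen with earlier results of these data known. Genes named were the 10 largest rises and falls past the test whose groups are apart and whose mean reaches 5 per 1000000 counts, up to 3 genes of smallest adjusted p per list with a member past, and a fixed set of genes of fuel use, clock and contraction. List members named beyond those, and the genes in the closing section, were chosen after their values were seen. Some genes are not reported here. Lists were described by counts and medians, without a list test. Promoter windows were RefSeq's for GRCm38.p6, matched by symbol, and 11 of 13 beta-oxidation genes had one. Some genes overlap or have near-identical copies, and how the counting split such reads is not known.

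On simulated counts with 200 changed genes, the sham layout (13991 genes) recovered 4%, 42%, 100% and 100% of 1.5-, 2-, 4- and 8-fold changes with 4.65% false calls. The simulation used a dispersion of 0.05 and like libraries, which the fat-free group was not. Plots come from matplotlib 3.10.9, with numpy 2.4.6 for the arithmetic.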

Additional observations from a re-analysis of the deposited data

How the results depend on the processing

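The 266 genes past the test became 1002 with total-count scaling and 1183 with the values as deposited, which moved the median of all genes to -0.16 and 0.13 and the share of higher genes among calls from 55.64% to 11.78% and 84.45%. They became 26 without a filter on low values, 80 at adjusted p under 0.05, 11 without a mean-variance trend, 134 with value-wise weights, 47 with log2 Myl7 as a covariate, 1 with all 11 libraries in one fit, and 0 when that pooled spread was used without fat-free replicates 1 and 3. With a library left out in turn they ran from 7 to 2356. The other 5 settings gave 231 to 268. The cause of these shifts was not tested, except that leaving out libraries or pooling groups changes the spread that the test uses. The signs of Sln (0.95), Mybphl (1.5), Sbk3 (0.98), Cntn2 (0.56), Foxo3 (0.064) and Dusp1 (0.21) turned under the Myl7 covariate. Myl7 itself differed between the diets, so that fit cannot separate the 2. Of 1276 pairs of a called named gene and a setting, 584 lost the call and 6 turned sign. In TAC hearts the count of 0 became 57 with all libraries in one fit and 0 to 6 with a library left out, and for the difference 1 without the trend and 0 to 1 with a library left out. Medians of 27 of the 52 lists, all between -0.12 and 0.16, changed sign under another scaling.

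With the replicate number as a block 415 genes passed, 195 higher and 220 lower, in sham hearts. The labels do not tie equal numbers to a shared animal or day, so the block is no pairing of the design. The deviations of the 2 pairs of equal number correlated at 0.201 and 0.0847. With 2 high-fat libraries the pairs of unequal number mirror them (-0.201 and -0.0847), so these values cannot test a pairing. With 2 and 3 libraries a group, precision is limited by their number.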

Other observations

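Several other long or nuclear RNAs were among the genes that rose in sham hearts. They were picked after their values were seen, so their direction carries no weight of its own. Kcnq1ot1, a long RNA antisense to a potassium channel gene, counted 24.9, 21.6 and 21.8 in the fat-free and 54.1 and 66.2 in the high-fat libraries (1.36 ± 0.28). Firre, a nuclear long RNA of the X chromosome, rose by 0.63, and the splicing factor genes Srrm2, Son and Luc7l2 by 0.46, 0.39 and 0.51. Single genes of large structural proteins among the rises were dystrophin Dmd, higher by 0.43, dystonin Dst by 0.39, Macf1 by 0.49 and Ahnak by 0.37. With all genes tested split by the gene length in the tables into 5 classes of nearly equal size, the median difference was -0.019, -0.042, -0.0145, -0.0011 and 0.062 from the shortest to the longest class. The longest class held 64 of the 148 genes that rose and 14 of the 118 that fell. In TAC hearts the medians of the same classes were -0.12, -0.054, -0.00054, 0.037 and 0.10, so that the longest class was also the highest there. The length of the genes that rose had a median of 3814 bases, of those that fell 2326 and of all genes tested 2846. Whether RNA quality or library preparation differed between the tables was not tested.

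More genes known from fat tissue and liver fell beside the white fat list. Cyp2e1, a cytochrome P450 gene, counted 376, 143 and 177 against 0.949 and 6.62, the retinol carrier gene Rbp4 67.5, 20.6 and 29.1 against 0 and 3.78, the haptoglobin gene Hp 159, 187 and 103 against 13.3 and 17, and Cdo1, which oxidises cysteine, 348, 143 and 168 against 17.1 and 35.9. All 4 were low in both high-fat libraries. Apoe, a lipoprotein gene of macrophages and other cells, fell (-1.13 ± 0.20), as did the resident macrophage genes Folr2 (-0.86 ± 0.17) and Cbr2 (-0.88 ± 0.13). Among lipid enzymes outside the lists, Ephx2, the soluble epoxide hydrolase, rose from 11469, 11164 and 11162 to 20112 and 19005 (0.80 ± 0.070, adjusted p = 0.00898 by limma), and Retsat, a retinol saturase gene, and Acsf2, an acyl-CoA synthetase gene, by 0.70 and 0.88.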
